A study of Homo sapiens with 40 samples.

Results

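The GW182 and Argonaute mRNAs were followed through 40 RNA-Seq libraries of HEK293 cells, an established human embryonic kidney line. The members were chosen by symbol: TNRC6A, TNRC6B and TNRC6C, which encode the GW182 proteins, and AGO1, AGO2, AGO3 and AGO4, which encode the Argonautes. All 7 had a row among the 55765 symbols of the count files and passed the filter on low counts in every fit. In the TNRC6 experiment, cells were transfected with siRNAs to TNRC6A plus TNRC6B or with control siRNA (n = 2 each), at 30 nM for 48 h. In the gradient experiment, cells had received control siRNA or siRNA against CNOT1 in the same way, and input RNA, subpolysomal RNA (fractions 1 to 5) and polysomal RNA (fractions 6 to 11) were sequenced (n = 4 each). In the RNA immunoprecipitation (RIP) experiment, cells without siRNA gave total RNA and the RNA recovered with antibodies against endogenous eIF4A1, eIF4A2 or DDX6 (n = 3 each).

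An Argonaute protein carries a miRNA to its target mRNA through base pairing of the miRNA seed, bases 2 to 8. A GW182 protein binds the Argonaute and recruits deadenylases, chiefly the Ccr4-Not complex, whose scaffold is CNOT1. AGO2 is the Argonaute known for slicing fully paired targets, and siRNAs load into Argonautes as well.

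Libraries held 15353317 to 46018900 counts, and no 2 libraries of a group were identical or agreed within sampling noise. Reads carried no molecular identifiers, so depth describes counting error only, and nothing in the labels says that replicates were separate cultures, so p-values measure the spread between these samples. The HEK293 markers LIN28B, NEFL, NEFM, VIM, KRT8 and KRT18 were present in every library, at 2.66 CPM or more, while PAX2 reached at most 1.57 CPM. The blood, liver and endothelial markers PTPRC, CD3E, ALB, APOA1 and CDH5 reached at most 0.408 CPM. CPM are counts scaled to a common library total with TMM factors.

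CNOT1 mRNA was used to check the labels of the gradient experiment. Input libraries held 610 to 679 CPM of CNOT1 with control siRNA and 35.4 to 39.7 CPM with CNOT1 siRNA (log2 difference -4.07, SE 0.062). Subpolysomal libraries held 255 to 328 and 81.1 to 96.7 CPM. Polysomal libraries of replicates 1, 2 and 4 held 453 to 481 CPM with control siRNA and 22.9 to 30.5 CPM with CNOT1 siRNA. Polysomal replicate 3 went against its labels, with 27.1 CPM of CNOT1 in the library labelled control siRNA and 609 CPM in the library labelled CNOT1 siRNA. The labels were kept, and the tests that use these 2 libraries are given with and without both.

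Exon models of the 7 genes differed mainly in the 3′UTR. On GRCh37, TNRC6A lies on chromosome 16 (24621530 to 24838953, plus strand), TNRC6B on chromosome 22 (40440821 to 40731812, plus strand) and TNRC6C on chromosome 17 (75954785 to 76104903, plus strand). The AGO4, AGO1 and AGO3 genes are neighbours on the plus strand of chromosome 1: AGO4 (36273617 to 36323491), AGO1 (36335409 to 36396133) and AGO3 (36396319 to 36538101), with 11917 bases between AGO4 and AGO1 and 185 bases between AGO1 and AGO3. AGO2 lies apart on chromosome 8 (141530255 to 141645732, minus strand). The annotated 3′UTRs were 2411 bases in TNRC6A, 12567 in TNRC6B, 3977 in TNRC6C, 10925 in AGO1, 11888 in AGO2, 16755 in AGO3 and 4285 in AGO4, against a median of 1063 over 18922 genes. AGO3 stood at percentile 99.9 of these lengths and TNRC6A, the shortest, at 74.9. GW182 coding regions were 5502 to 5889 bases and Argonaute coding regions 2574 to 2586 bases.

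At least 98.24% of the 50-base stretches of each annotated transcript occurred in no other gene, so that members of a family could be told apart by reads. TNRC6C shares 1426 exon bases (12.26%) with TMC6 on the opposite strand and AGO1 shares 396 (2.82%) with a long noncoding RNA on the opposite strand. The library kit marks strand, but the strand option of the counting is not given in the sources used here, so reads in these stretches may have been counted for either gene or left out.

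The members are themselves mRNAs with long 3′UTRs, and their seed matches are printed because miRNA sites are where Argonaute and GW182 proteins meet an mRNA. Mature sequences of 3 miRNA families are given from RefSeq (GRCh38.p14) with the seed in capitals.
let-7a-5p: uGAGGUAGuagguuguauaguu
miR-17-5p: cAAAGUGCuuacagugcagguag
miR-30a-5p: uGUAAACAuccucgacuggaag
The reverse complements of these seeds (CTACCTC for let-7, GCACTTT for miR-17 and TGTTTAC for miR-30) were searched on the transcribed strand of each 3′UTR, and no match printed here overlaps another. TNRC6A held 4 TGTTTAC matches in 2411 bases, 1.66 per kb against 0.11 per kb over 18332 annotated 3′UTRs. Of the 2347 3′UTRs of similar length (within 20%), 22.9% held at least 1 such match. The 4 matches of TNRC6A follow, 5′ to 3′ on the plus strand of chromosome 16 in GRCh37, with the match in capitals.
chr16:24835574-24835598: cagtgtcaaTGTTTACtcaagggtg
chr16:24835865-24835889: gaaccttctTGTTTACagatttttt
chr16:24835905-24835929: aaaaaaaaaTGTTTACtcttccatc
chr16:24836671-24836695: gcttttaacTGTTTACaaatagaat
TNRC6B and TNRC6C held 2 such matches each, in 12567 and 3977 bases. The TNRC6C matches are shown for comparison with TNRC6A, and a relation of matches to the siRNA responses was not tested.
chr17:76101964-76101988: atgtgtaaaTGTTTACtcaaggact
chr17:76102266-76102290: gctcccaccTGTTTACagacctttt
TGTTTAC occurred once in AGO1, at 3 places in AGO2 and 2 in AGO3, and not in AGO4, and 67.9% of 3′UTRs within 20% of the TNRC6B length held it. Matches to CTACCTC were found once in AGO1 and AGO3 and at 2 places in AGO2, and not in the TNRC6 genes or AGO4. Of 3′UTRs within 20% of the AGO1 length, 49.1% held this motif.
chr1:36386284-36386308: ttattcctcCTACCTCccgccccgc
The AGO1 match to let-7 is shown above. GCACTTT was found in every member, from 1 match in TNRC6A and AGO4 to 8 in AGO3, and 82.2% of 3′UTRs as long as that of AGO3 held it. A match describes the sequence only and was not tested as a binding site.

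Levels were compared between members as CPM per kb of merged exons. In control input RNA, TNRC6A (15.1 CPM per kb) and AGO1 (15.0) stood above the rest, at 14.7 to 15.5 and 14.5 to 15.5 CPM per kb in the 4 libraries. AGO4 followed at 5.16 to 5.98, TNRC6B at 4.02 to 4.76, TNRC6C at 3.58 to 4.34, AGO2 at 3.58 to 4.00 and AGO3 at 3.55 to 3.98 CPM per kb. TNRC6A and AGO1 overlapped, AGO4 did not overlap its neighbours, and TNRC6B, TNRC6C, AGO2 and AGO3 each overlapped the next. TNRC6A made up 64.4% ± 1.86 (SD, n = 4) of the summed GW182 level and AGO1 53.4% ± 1.48 of the summed Argonaute level. The order depended on the length used: per kb of the longest coding transcript, TNRC6A had 23.1 CPM and AGO1 15.3.

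**Figure D1:**
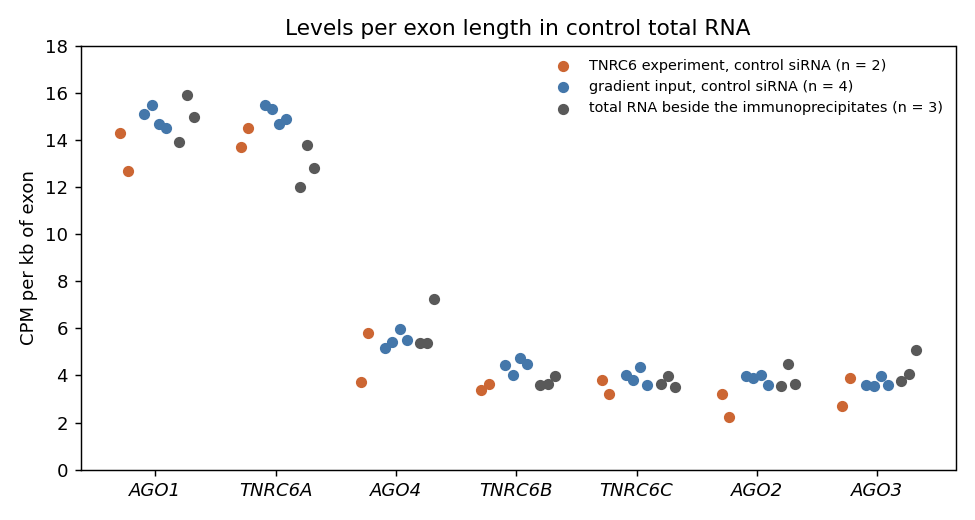
Level of each member in CPM per kb of merged exons (y axis, linear from 0) in the libraries of unfractionated RNA without targeted siRNA. Each point is a library, coloured by experiment, and AGO1 and TNRC6A lie between 12 and 15.9 in all 9 libraries while the other members lie at or below 7.25.

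To ask whether the untargeted GW182 member or the Argonautes responded to loss of TNRC6A and TNRC6B, the TNRC6 experiment was examined first for its targets. TNRC6A was at 178 and 189 CPM with control siRNA and at 40.5 and 64.7 CPM with TNRC6A/B siRNA. TNRC6B, the other target, was at 67.6 and 73.1 CPM and then at 17.7 and 26.3 CPM. The groups did not overlap for either target, with log2 differences of -1.80 (SE 0.29) and -1.68 (SE 0.28). By edgeR no gene of 14064 was called (0%), at an adjusted p of 1 for both targets, although 173 genes were higher and 116 lower at an unadjusted p under 0.05. DESeq2 called 0.0569% of the genes, 6 higher and 2 lower, and the 2 lower genes were the targets, TNRC6A (adjusted p = 0.0246) and TNRC6B (adjusted p = 0.0329). An exact permutation test of 2 against 2 libraries could not go below p = 0.333.

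TNRC6C, the GW182 gene without an siRNA, was not higher in treated cells. Its level was 44.4 and 37.4 CPM with control siRNA and 18.9 and 20.9 CPM with TNRC6A/B siRNA. Both treated libraries were below both controls. The log2 difference of -1.04 (SE 0.24) did not pass the test (edgeR adjusted p = 1), which neither siRNA target passed either. With the replicate number as a block in the fit, TNRC6C was called lower (-1.04, adjusted p = 7.32e-07). That fit called 520 genes higher and 243 lower of 14064. It pairs same-numbered libraries, which deviated together (r = 0.821) but share only a number in the labels. The summed GW182 level was 20.9 and 21.4 CPM per kb with control siRNA and 5.64 and 8.10 with TNRC6A/B siRNA. TNRC6C made up 16.6% ± 2.27 of this sum in controls and 25.5% ± 4.66 in treated cells (SD, n = 2). Reads of the 3 genes are told apart by sequence, and sequences of the siRNAs were not analysed here, so direct pairing of an siRNA with TNRC6C was not tested.

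The Argonaute mRNAs were higher on average after TNRC6A/B siRNA, by log2 0.44 (SE 0.22) for AGO1, 0.70 (SE 0.33) for AGO2, 0.28 (SE 0.27) for AGO3 and 0.23 (SE 0.31) for AGO4. None had an unadjusted p under 0.05, and none passed the test (edgeR adjusted p = 1 for each). With the replicate block AGO2 was called higher (0.70, adjusted p = 0.00169), and AGO1, AGO3 and AGO4 were not called. AGO2, the slicing Argonaute, was at 50.9 and 35.5 CPM in controls and at 84.8 and 56.1 CPM in treated cells. AGO1 was at 201 and 178 CPM and then at 292 and 224 CPM. Values of AGO1 and AGO2 did not overlap between the groups, whereas those of AGO3 (57.5 and 82.0 against 77.1 and 92.5 CPM) and AGO4 (27.8 and 43.2 against 37 and 46.2 CPM) did. Without control replicate 1 the AGO4 difference was -0.06. The summed Argonaute level was 24 and 24.6 CPM per kb in controls and 34.7 and 30.1 in treated cells. In all, 5 of 7 members, the targeted TNRC6A and TNRC6B included, did not overlap between groups, beside 24.6% of all 14064 genes.

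**Figure D2:**
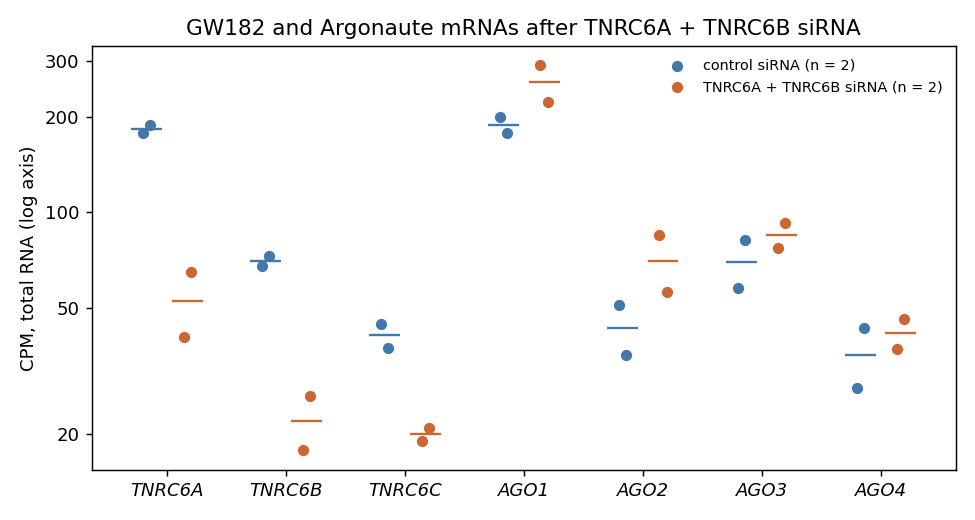
CPM of the 7 members (y axis, log scale) in total RNA after control siRNA or TNRC6A and TNRC6B siRNA. Points are libraries and bars are group means of 2 libraries, and the treated libraries lie below the controls for the 3 TNRC6 genes, TNRC6C included. No gene was called by edgeR without the replicate block.

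The miRNA pathway was described with 4 lists, 41 genes in all, covering miRNA biogenesis and loading, Argonaute regulators, deadenylation, and repression and decapping. None of the 41 was called after TNRC6A/B siRNA by edgeR, with a median log2 difference of 0.07 beside -0.026 over all genes. CNOT1 itself differed by 0.30 (SE 0.23, adjusted p = 1).

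The gradient experiment asked how the members respond to loss of the deadenylase scaffold. In input RNA, 6 of 7 members changed with CNOT1 siRNA, beside 61% of all 15686 genes tested, so a call was the usual outcome here. TNRC6A and TNRC6B rose, TNRC6C, AGO1, AGO3 and AGO4 fell, and AGO2 differed by 0.11 (SE 0.054) without passing the test (edgeR adjusted p = 0.0986). TNRC6A rose most, from 201, 198, 191 and 194 CPM to 331, 313, 333 and 297 CPM (log2 0.70, SE 0.052, adjusted p = 3.96e-08). Every CNOT1 siRNA library was above every control. TNRC6C fell from 46.5, 44.3, 50.4 and 41.6 CPM to 31.5, 31.9, 36.2 and 30.1 CPM (log2 -0.50, SE 0.073, adjusted p = 2.73e-05). The 2 groups were again separate, so that the GW182 members moved in opposite directions. TNRC6B rose from a mean of 88.4 ± 6.10 to 109 ± 12 CPM (SD, n = 4, log2 0.31, adjusted p = 0.00203).

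Among the Argonautes, AGO4 fell most in input RNA, from 38.3, 40.3, 44.4 and 40.8 CPM to 24, 22.6, 31.4 and 23.8 CPM (log2 -0.69, SE 0.091, adjusted p = 9.77e-06). The highest treated library, replicate 3, was still below the lowest control. AGO3 fell from 77.9 ± 4.28 to 59.3 ± 5.29 CPM (log2 -0.39, adjusted p = 9.29e-05) and AGO1 from 210 ± 6.63 to 179 ± 9.14 CPM (log2 -0.23, adjusted p = 0.00131). AGO2 was at 56.7 to 63.3 CPM in controls and 64.2 to 68.6 CPM in treated libraries, which did not overlap. The share of all genes without overlap is not given for input RNA. The summed GW182 level was 23.0 to 24 CPM per kb in controls and 30.7 to 35.1 with CNOT1 siRNA, and the summed Argonaute level 27.1 to 28.7 and 22.0 to 23.9. TNRC6A made up 64.4% of the GW182 sum with control siRNA and 74.9% ± 1.24 with CNOT1 siRNA, and TNRC6C 16.7% ± 1.1 and 8.49% ± 0.371. Leaving out any of the 8 libraries kept these 6 calls. With the spread taken from all 24 gradient libraries, the calls of TNRC6B (adjusted p = 0.113) and AGO1 (adjusted p = 0.123) were lost.

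Of the 41 pathway genes in input RNA, 18 rose and 14 fell with CNOT1 siRNA (median -0.04, against -0.002 over all genes). CNOT1 fell by 4.07 and CNOT6, a deadenylase subunit, fell by 0.74 on the log2 scale. CNOT6L, the paralog of CNOT6, rose by 0.73 and the subunit gene CNOT3 by 0.48. The deadenylation list had 7 genes higher and 5 lower of 14, CNOT1 included, the repression and decapping list 7 and 4 of 11, the biogenesis and loading list 3 and 2 of 8, and the Argonaute regulators 1 and 3 of 8.

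In subpolysomal RNA, which holds free mRNPs, ribosomal subunits and few ribosomes per mRNA, 3 of 7 members rose with CNOT1 siRNA and none fell, beside 27.8% of 15823 genes called. AGO2 rose most, from 22.3, 19.5, 29.3 and 21.5 CPM to 42.4, 43.9, 50 and 45.8 CPM (log2 0.98, SE 0.14, edgeR adjusted p = 0.00148). TNRC6B rose from 30.4, 27.9, 33.8 and 30.3 CPM to 52.0, 45.3, 58.9 and 48.6 CPM (log2 0.74, SE 0.12, adjusted p = 0.00212). Neither mRNA overlapped between the groups, nor did TNRC6A, but the share of all genes without overlap is not given for subpolysomal RNA. TNRC6A rose from 162 ± 15.7 to 217 ± 22.7 CPM (SD, n = 4, log2 0.43, adjusted p = 0.0198), and without the library of CNOT1 siRNA replicate 1 or 3 this call was lost, with an adjusted p of up to 0.0537. It was also lost with all 24 gradient libraries in the fit (0.4, adjusted p = 0.0888). AGO3 was at 59.6 to 90.4 CPM in controls and 52.3 to 64.7 CPM in treated libraries (log2 -0.39, adjusted p = 0.0539). AGO1 (0.19), AGO4 (-0.22) and TNRC6C (-0.14) were not called.

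Same-numbered subpolysomal libraries deviated together, and with the replicate number as a block 58.2% of all genes and 6 of 7 members were called, AGO1 (log2 0.20, adjusted p = 0.0252) higher and AGO3 (-0.38, adjusted p = 0.000172) and AGO4 (-0.22, adjusted p = 0.0153) lower in addition. Of the 41 pathway genes, 4 rose and 7 fell in subpolysomal RNA without the block. CNOT6L rose by 0.54 and CNOT8 by 0.46, and beside CNOT1, which fell by 1.76, PABPC1, the poly(A)-binding protein, fell by 1.17 on the log2 scale.

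In polysomal RNA, none of 14474 genes (0%) and no member was called by edgeR with the labels as given, with 38 genes higher and 61 lower at an unadjusted p under 0.05, and DESeq2 called none. TNRC6A was at 154, 144, 318 and 153 CPM with control siRNA and at 278, 252, 186 and 244 CPM with CNOT1 siRNA. The third value of each group comes from a library whose CNOT1 counts oppose its label, and was the highest of the controls and the lowest of the CNOT1 siRNA group. AGO4 was at 30, 30.9, 27.1 and 35.6 CPM and at 18, 16.2, 42.5 and 21.4 CPM, where replicate 3 was the lowest control and the highest treated library. TNRC6C was at 24.9, 22.1, 47.9 and 21.5 CPM with CNOT1 siRNA, against 30.5 to 33.6 CPM in all 4 controls.

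Without both polysomal replicate 3 libraries, 40.6% of 14514 genes and 6 of 7 members were called. TNRC6A (log2 0.78, adjusted p = 0.000181) and TNRC6B (0.28, adjusted p = 0.0283) were higher with CNOT1 siRNA. TNRC6C (-0.49, adjusted p = 0.00412), AGO1 (-0.23, adjusted p = 0.0326), AGO3 (-0.37, adjusted p = 0.0162) and AGO4 (-0.79, adjusted p = 0.00126) were lower. AGO2 differed by 0.35 (adjusted p = 0.0713). Each of the 7 differences had the sign it had in input RNA, with and without both libraries. By the study's methods, input RNA was taken from the lysates that were loaded on the gradients, so input and polysomal values are not independent. Among the pathway genes 13 were higher and 8 lower without both libraries, with CNOT6L (0.70) and CNOT3 (0.60) rising most and DCP2, the decapping enzyme (-0.87), falling most after CNOT1 (-4.10).

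**Figure D3:**
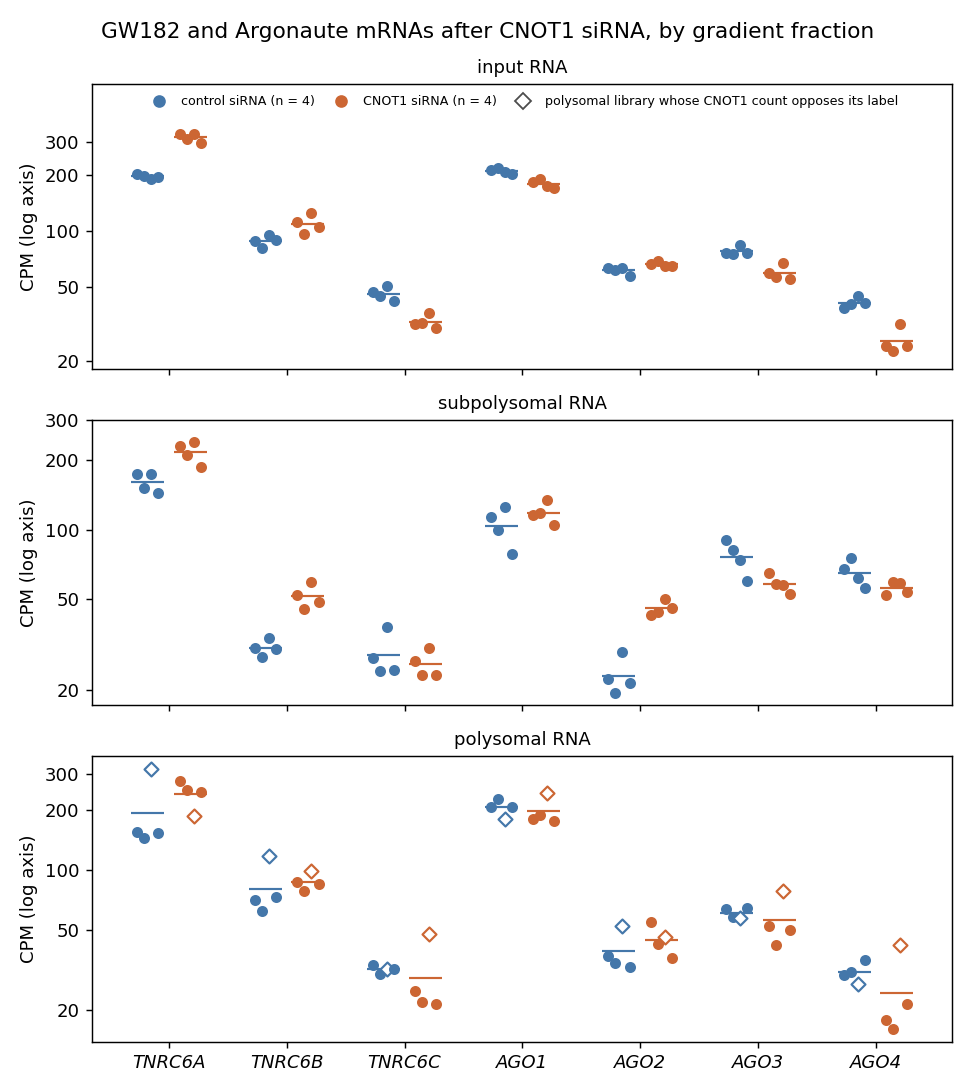
CPM of the 7 members (y axis, log scale) in input, subpolysomal and polysomal RNA after control or CNOT1 siRNA. Circles are libraries, bars are means of the 4 libraries as labelled, and open diamonds are the 2 polysomal libraries whose CNOT1 counts oppose their labels, such as the control-labelled one with 318 CPM of TNRC6A. In input RNA every member is separate between the siRNA groups, with TNRC6A and TNRC6C in opposite directions.

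Polysome association was taken as the log2 ratio of polysomal to subpolysomal CPM (pseudocount 0.5 CPM) in each gradient, where polysomes hold mRNAs with many ribosomes. In control cells the members spread widely around the median gene, whose ratio was -0.11 to 0.00. TNRC6B had ratios of 1.32, 1.25, 1.99 and 1.42, AGO1 of 0.98, 1.28, 0.75 and 1.57, and AGO2 of 0.83, 0.91, 1.06 and 0.77. These 3 mRNAs were higher in the polysomal library of every control gradient. AGO4 was the opposite, with ratios of -1.04, -1.17, -0.95 and -0.48. TNRC6A, TNRC6C and AGO3 averaged 0.32 ± 0.53, 0.33 ± 0.24 and -0.15 ± 0.31 (SD, n = 4). The third ratio uses the polysomal control library that opposes its label, and without it these means were 0.07 ± 0.16, 0.45 ± 0.084 and -0.16 ± 0.38 (SD, n = 3).

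Tested over the 8 control libraries, 65.1% of 15500 genes differed between polysomal and subpolysomal RNA. TNRC6B (log2 1.47, SE 0.18, edgeR adjusted p = 3.42e-05), AGO1 (1.06, SE 0.16, adjusted p = 0.000165) and AGO2 (0.84, SE 0.18, adjusted p = 0.00163) were higher in polysomal RNA and AGO4 lower (-0.99, SE 0.15, adjusted p = 0.000166). TNRC6A, TNRC6C and AGO3 were not called. With all 24 gradient libraries in the fit, TNRC6A was called higher (0.41, adjusted p = 0.0442), beside 5837 genes higher and 6199 lower of 16776. The 4 calls of the main test held without both replicate 3 libraries, where the values were 1.29, 1.16, 0.72 and -0.89. The difference of TNRC6A became 0.02 there. AGO4 and AGO1, neighbouring genes with coding lengths of 2586 and 2574 bases, thus differed in direction. Shares of the Argonaute sum followed, with AGO4 at 41.4% ± 3.84 in control subpolysomal RNA and 17.2% ± 1.5 in control polysomal RNA, and AGO1 at 34.7% ± 3.51 and 60.4% ± 2.92 (SD, n = 4). Without the library that opposes its label, the polysomal shares were 17.5% ± 1.65 and 61.6% ± 2.17 (SD, n = 3). These shares are levels per kb within each fraction, and absolute RNA amounts of the fractions were not measured. Of the pathway genes, 17 were higher and 8 lower in polysomal RNA, or 19 and 11 without both replicate 3 libraries, from HSP90AB1 (2.06) and HSP90AA1 (1.99), the chaperones that load Argonautes, to DGCR8 (-1.58) and PABPC1 (-3.68).

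The change of polysome association with CNOT1 siRNA was tested as the difference between the CNOT1 siRNA effects in polysomal and subpolysomal RNA. With the labels as given, 0.951% of 16506 genes were called, 95 higher and 62 lower, or 46 and 62 with RLE in place of TMM factors, and no member was. AGO2 had the lowest value (-0.75, SE 0.23, edgeR adjusted p = 0.132), followed by TNRC6B (-0.59, SE 0.23, adjusted p = 0.225). AGO2 ratios were 0.77 to 1.06 in control gradients and 0.54, 0.14, 0.08 and -0.13 with CNOT1 siRNA, and TNRC6B ratios were 1.25 to 1.99 and 0.90 to 1.00. Neither overlapped, but the share of all genes without overlap is not given here. The highest control ratios, 1.06 and 1.99, and the AGO2 ratio of 0.08 come from replicate 3, whose polysomal libraries oppose their labels. AGO2 was called with all 24 gradient libraries in the fit (-0.75, adjusted p = 0.0228) and by DESeq2 (-0.79, adjusted p = 0.0240). The former fit called 547 genes higher and 402 lower of 16776, and the latter 271 and 307 of 16506. Without both polysomal replicate 3 libraries, 9.44% of genes and again no member were called by edgeR, with AGO2 at -0.59 (adjusted p = 0.0799), TNRC6B at -0.42 (adjusted p = 0.0906) and AGO4 at -0.52 (adjusted p = 0.0922). Without both libraries DESeq2 called 875 genes higher and 1326 lower of 16805. Among the lower ones were AGO2 (-0.68, adjusted p = 0.0136), TNRC6B (-0.51, adjusted p = 0.0143) and AGO4 (-0.62, adjusted p = 0.0267). With the replicate number as a block and without both, 1655 genes were called higher and 1219 lower of 16805. Among them AGO2 (-0.61, adjusted p = 0.0215) and TNRC6B (-0.41, adjusted p = 0.0219) were lower and TNRC6A (0.39, adjusted p = 0.0317) higher. TNRC6A went from -0.07 to 0.39 (adjusted p = 0.124) and TNRC6C from 0.02 to -0.32 (adjusted p = 0.379) when these libraries were left out. Among pathway genes, DGCR8 (1.06) and PABPC1 (1.35) were called higher with all libraries and none lower. Without both replicate 3 libraries, DGCR8 (1.07) and PABPC1 (1.38) were called higher and CNOT1 (-2.30), ANKRD52 (-0.68), CNOT6 (-0.61) and CNOT7 (-0.68) lower. CNOT1 was at 0.75, not called, with all libraries.

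**Figure D4:**
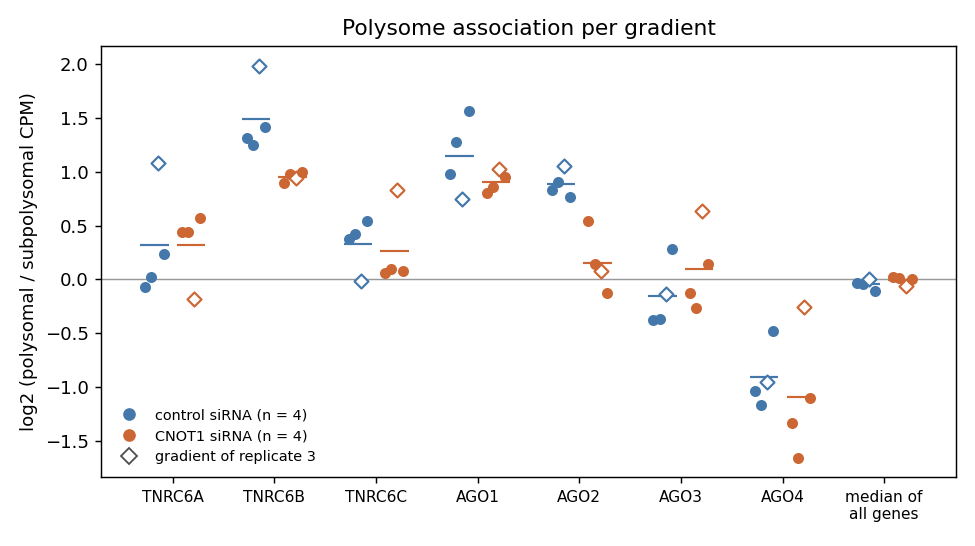
Polysome association, the log2 ratio of polysomal to subpolysomal CPM (y axis), for the 7 members and the median of all genes in 4 control and 4 CNOT1 siRNA gradients. Points are gradients, bars are means, and open diamonds are gradients of replicate 3. TNRC6B, AGO1 and AGO2 lie above 0 and AGO4 below 0 in all control gradients.

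The RIP experiment asked which mRNAs are recovered with eIF4A1, the helicase of the translation initiation factor eIF4F, with its paralog eIF4A2, and with DDX6, a repressor that binds CNOT1. The 3 comparisons share the same total RNA libraries, so their values are given side by side. AGO4 was higher than in total RNA in each IP. Total RNA held 40.1, 39.9 and 53.8 CPM of AGO4, the eIF4A1 IP 109, 74.9 and 99.8 CPM, the eIF4A2 IP 102, 93.4 and 115 CPM and the DDX6 IP 81.8, 65.8 and 90.8 CPM. No IP library overlapped total RNA for AGO4. The same held for TNRC6B, AGO2 and AGO3, which were lower, in each IP and for TNRC6A in the DDX6 IP. The share of all genes without overlap is not given for the IPs. The log2 differences of AGO4 were 1.08, 1.22 and 0.83 (SE 0.18 each, edgeR adjusted p = 0.000275, 0.000115 and 0.00226). AGO4 was the only member called higher in any IP, and the call held without any single library.

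TNRC6B and AGO3 were called lower than in total RNA in 2 IPs each. TNRC6B was at 71.8, 73.3 and 79.4 CPM in total RNA and at 44.2, 34.7 and 51.6 CPM in the eIF4A1 IP (log2 -0.78, SE 0.20, adjusted p = 0.00501). In the eIF4A2 IP it was at 61.1, 46.6 and 46.9 CPM (-0.54, adjusted p = 0.0366), and that call was lost without total RNA replicate 1, 2 or 3 or eIF4A2 IP replicate 2 or 3 (adjusted p up to 0.114). The DDX6 IP held 65.3, 38.2 and 54.6 CPM of TNRC6B (-0.51, adjusted p = 0.0512). AGO3 fell from 79.7, 86.0 and 108 CPM in total RNA to 53.7 to 70.9 CPM in the eIF4A1 IP (-0.52, adjusted p = 0.00945) and 56.3 to 63.0 CPM in the DDX6 IP (-0.61, adjusted p = 0.00442), and was not called in the eIF4A2 IP (-0.30, adjusted p = 0.108). AGO2 was called lower in the DDX6 IP alone (-0.63, adjusted p = 0.0380), a call that was lost without total RNA replicate 1, 2 or 3 or DDX6 IP replicate 1 or 2 (adjusted p up to 0.153). AGO1, TNRC6A and TNRC6C were called in no IP, with log2 differences from -0.13 to 0.38.

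Over all 17474 genes tested, 52.6% were called in the eIF4A1 IP, 50.3% in the eIF4A2 IP and 46% in the DDX6 IP, so that 3, 2 and 3 called members of 7 stood at or below the common rate. Same-numbered libraries deviated together in this experiment, with the numbers taken from the titles, although 1 total RNA library titled replicate 3 is described as replicate 2. With the replicate number as a block, 64.5%, 62.4% and 60% of genes and 4, 4 and 4 members were called. The added calls were AGO2 in the eIF4A1 IP (-0.62, adjusted p = 0.00967), AGO2 (-0.57, adjusted p = 0.0157) and AGO3 (-0.29, adjusted p = 0.0340) in the eIF4A2 IP and TNRC6B in the DDX6 IP (-0.54, adjusted p = 0.00619). An immunoglobulin control library was not analysed here, so unspecific recovery was not tested.

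**Figure D5:**
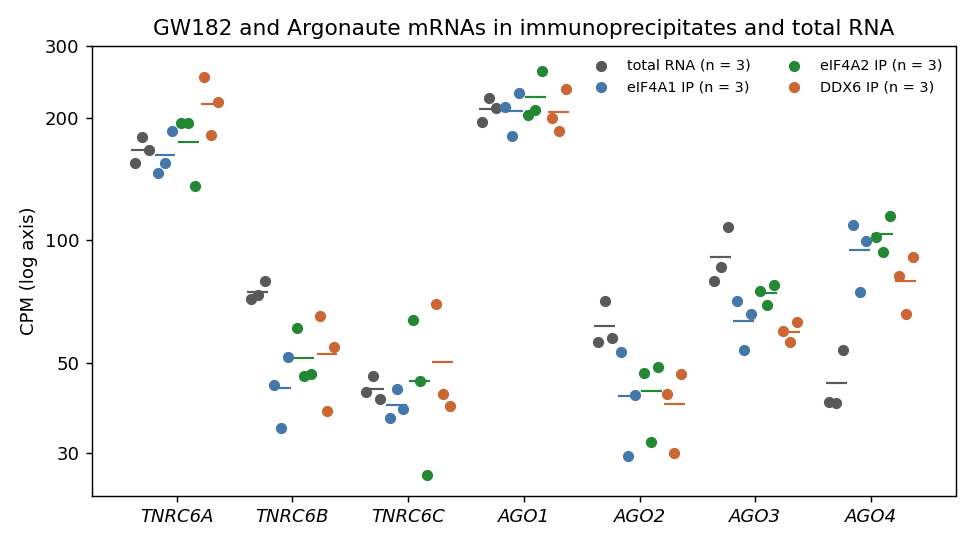
CPM of the 7 members (y axis, log scale) in total RNA and in the eIF4A1, eIF4A2 and DDX6 IPs. Points are libraries and bars are means of 3 libraries. AGO4 lies at 65.8 CPM or more in every IP library and at 53.8 CPM or less in total RNA.

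Direct comparisons of the IPs called no member by edgeR, beside 1.06% of genes between the eIF4A2 and eIF4A1 IPs, 21.1% between the eIF4A2 and DDX6 IPs and 0.0916% between the DDX6 and eIF4A1 IPs. The nearest to a call were AGO3 (log2 0.31, SE 0.15) and AGO4 (0.38, SE 0.18) between the eIF4A2 and DDX6 IPs, both at an adjusted p of 0.144. Their libraries did not overlap, but the share of all genes without overlap is not given for this comparison. With the replicate block, which called 40.5% of genes in that comparison, AGO3 (0.31, adjusted p = 0.0378) and AGO4 (0.39, adjusted p = 0.0137) were called higher in the eIF4A2 IP. The block called 1245 genes higher and 1521 lower between the eIF4A2 and eIF4A1 IPs and 1062 and 668 between the DDX6 and eIF4A1 IPs, again with no member. TNRC6A was at 217 ± 35.1 CPM in the DDX6 IP and 162 ± 20.6 CPM in the eIF4A1 IP (SD, n = 3), a log2 difference of 0.42 that did not pass the test (adjusted p = 0.307).

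Pathway genes in the IPs included mRNAs of the precipitated proteins, EIF4A2 in the eIF4A2 IP (log2 1.27) and DDX6 in the DDX6 IP (1.58). In the eIF4A1 IP 8 pathway genes were higher and 15 lower than in total RNA, in the eIF4A2 IP 10 and 13, and in the DDX6 IP 13 and 11. HSP90AA1 was lower in all 3 (log2 -2.37, -2.12 and -1.77), as was HSP90AB1 (-1.63, -1.83 and -1.33). PABPC1 rose by 1.55 in the eIF4A1 IP and by 2.46 in the DDX6 IP, WTIP by 1.25 in the eIF4A1 IP and DCP2 by 1.23 in the eIF4A2 IP. Between the eIF4A2 and eIF4A1 IPs, EIF4A2 (1.05) and EIF4ENIF1 (0.70) were higher in the former. The decapping genes DCP1A and DCP1B were recovered more with DDX6 than with eIF4A1, by 1.37 and 1.74, and less with eIF4A2 than with DDX6 (-1.46 and -1.68). EIF4A2 (0.97) and PAN2 (0.88) were recovered more with eIF4A2 than with DDX6.

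For each member the genes with the most similar profile were found by Pearson's r over the 40 libraries, centred within each experiment, among 9693 genes with a mean of at least 10 CPM. The closest to TNRC6A were TNRC6B (r = 0.746) and YEATS2 (0.716), and to TNRC6B they were PTPRZ1 (0.905) and NAV1 (0.890). TNRC6C was closest to BCOR (0.741) and CHD3 (0.709). AGO1 was close to CASC7 (0.955), AGO2 to GREB1L (0.919) and IGF2BP1 (0.883), AGO3 to TTC21B (0.914) and CEP78 (0.912), and AGO4 to KIAA0232 (0.928) and PCMTD2 (0.926). Libraries share siRNA targets and fractions, so these values describe co-variation only. Without the 2 polysomal libraries that oppose their labels, the r of TNRC6A with TNRC6B was 0.751 and that of AGO1 with CASC7 0.955. Between members r ran from -0.61 for AGO4 and TNRC6B to 0.75 for TNRC6A and TNRC6B, and AGO1 and AGO3, which lie 185 bases apart, had r = 0.26.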

How the data were processed

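The 40 libraries were made with a stranded TruSeq kit and sequenced for 75 cycles. The authors aligned reads to hg19 with TopHat2 and deposited raw counts per gene from htseq-count. Tool versions beyond bcl2fastq 2.0 and the strand option are not given in the sources used here. A merged IP table holding fold changes and p-values of the authors' own comparisons was not used.

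Groups were taken from the sample labels. Libraries held 15353317 to 46018900 counts. Counts were tested with the quasi-likelihood test of edgeR 4.0.16 (R 4.3.3), with filterByExpr, TMM factors and 1 coefficient per group, and p-values were adjusted over all genes by Benjamini-Hochberg (threshold 0.05). TNRC6 and CNOT1 siRNA comparisons used the libraries compared, the polysome comparison the control libraries, the change in association the 16 polysomal and subpolysomal libraries, and the IP comparisons all 12 RIP libraries. The alternatives tried were a replicate block, DESeq2 1.42.0, RLE in place of TMM, all genes without the filter, other libraries in the fit and leaving out libraries, 6 of them chosen after seeing the data. The code was tested on simulated data. Same-numbered libraries deviated together in input RNA (r 0.173 to 0.282), subpolysomal RNA (0.534 to 0.69), RIP (0.138 to 0.628) and the TNRC6 experiment (0.821, the same for both pairs). The main tests did not pair these libraries, and pairing entered only with the replicate block. The labels give only numbers. By the study's methods, RIP total RNA came from aliquots of the IP lysates, and subpolysomal and polysomal RNA of a gradient from the same lysate. Whether equal numbers mark a shared lysate is not stated. Pairing of control with siRNA libraries comes from the data alone.

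Gene models were GENCODE release 44 on GRCh37. The members and pathway lists were chosen with earlier results of these data known. Genes named were the 7 members, CNOT1, the 2 called pathway genes with the largest increase and decrease per comparison, and the 2 genes most similar to each member. Some genes that these rules name are not reported here.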

Additional observations from a re-analysis of the deposited data

Results flagged for a closer look

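Of 42 sets of 4 gradient libraries (7 members in 6 groups), 4 had a library far from the other 3, where chance gives about 1 in 20. In input RNA, AGO3 was at 84.3 CPM in control siRNA replicate 3, against 75.2 to 76.3 CPM in the other control libraries. AGO4 was at 31.4 CPM in input CNOT1 siRNA replicate 3, against 22.6 to 24 CPM. In polysomal RNA, TNRC6A was at 318 CPM in the library labelled control siRNA replicate 3, against 144 to 154 CPM. TNRC6C was at 47.9 CPM in the library labelled CNOT1 siRNA replicate 3, against 21.5 to 24.9 CPM. These 2 polysomal libraries held 27.1 and 609 CPM of CNOT1, against their labels.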

How the results depend on the processing

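Beside the values reported, the members were refitted under the alternatives for each member and comparison. In 952 of these fits the direction and the side of the threshold stayed, 15 lost and 61 gained a call, and 64 changed sign. The cause of these changes was not tested.

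After TNRC6A/B siRNA, 2 members were called lower by DESeq2 and 2 without the filter, where 20 genes were higher and 3 lower of 24928. Same-numbered control and treated libraries deviated together (r = 0.821), though the labels give only a shared number. With the replicate number as a block, TNRC6A, TNRC6B and TNRC6C were called lower (3 members, adjusted p = 1.06e-24, 5.21e-19 and 7.32e-07). AGO2 was called higher (1 member, adjusted p = 0.00169), with 520 genes higher and 243 lower in all. With all 24 gradient libraries, 1 member was called higher in input RNA and 1 lower in subpolysomal RNA. Of 16776 genes, 2245 were called higher and 2614 lower in input RNA, and 2182 and 3212 in subpolysomal RNA. With the block, 2 were lower in subpolysomal RNA. Without both polysomal replicate 3 libraries, polysomal RNA had 2 higher and 4 lower members, 3 and 4 with the block, where AGO2 was added (0.34, adjusted p = 0.000475), and 1 and 4 with DESeq2. Over all 14514 genes, 4523 were called higher and 3932 lower with the block, and 2768 and 2688 with DESeq2. For the change in polysome association, 1 member was lower with DESeq2, with all 24 libraries and without the filter, which called 95 genes higher and 351 lower of 33225. Without both libraries, 3 were lower with DESeq2 and, with the block, 1 higher (TNRC6A) and 2 lower (TNRC6B and AGO2). With only the compared libraries, 2 were higher in the DDX6 IP, beside 4370 genes higher and 4224 lower of 16739. In the eIF4A2 IP, 2 were lower without the filter and 3 with the block, and 2 were higher than in the DDX6 IP with the block. Without the filter, 4400 genes were higher and 4795 lower of 32590 in the eIF4A2 IP. TNRC6C was also called higher in polysomal than in subpolysomal control RNA with the block and without both libraries (0.45, adjusted p = 0.0287). The block changed no other call but those named here or in the report.

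With 1 library left out, the number called lower ran from 0 to 1 in subpolysomal RNA, 0 to 1 in the eIF4A2 IP and 1 to 2 in the DDX6 IP, where 1 to 2 were called higher.

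Changes of sign came only in values that had not passed the test. Without the filter AGO1 was at 0.02 in the eIF4A1 and DDX6 IPs, and with only the compared libraries at 0.01 and 0. AGO1 was at 0 between the DDX6 and eIF4A1 IPs with DESeq2 or RLE factors, and TNRC6C at 0 in the eIF4A2 IP with the block. For the change in polysome association, TNRC6C was at -0.01 with DESeq2 or RLE factors, -0.08 without the filter and -0.06 with the block. Without both replicate 3 libraries TNRC6C was at -0.32, -0.33 with the block and -0.41 with DESeq2, TNRC6A at 0.39, 0.39 and 0.3, and AGO3 at -0.03 with DESeq2. With 1 library left out, the log2 differences that changed sign had the following ranges. In the comparison of the DDX6 IP with the eIF4A1 IP they were AGO1 -0.11 to 0.08 and AGO2 -0.23 to 0.15. In the DDX6 IP they were AGO1 -0.12 to 0.06 and TNRC6C -0.09 to 0.37. In the eIF4A1 IP they were AGO1 -0.09 to 0.07 and TNRC6A -0.14 to 0.04. In the comparison of the eIF4A2 IP with the DDX6 IP they were AGO1 -0.01 to 0.22, AGO2 -0.06 to 0.27, TNRC6B -0.22 to 0.15 and TNRC6C -0.49 to 0.15. In the comparison of the eIF4A2 IP with the eIF4A1 IP they were AGO1 -0.01 to 0.19, AGO2 -0.14 to 0.26, AGO4 0 to 0.24 and TNRC6C -0.14 to 0.46. In the eIF4A2 IP they were AGO1 -0.03 to 0.17, TNRC6A -0.02 to 0.22 and TNRC6C -0.27 to 0.34. For the change in polysome association they were AGO4 -0.47 to 0.08, TNRC6A -0.19 to 0.28 and TNRC6C -0.32 to 0.14. After TNRC6A/B siRNA they were AGO4 -0.06 to 0.63. In polysomal RNA they were TNRC6B -0.01 to 0.35. In subpolysomal RNA they were TNRC6C -0.22 to 0.06.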
